A study of Mus musculus with 16 samples.

Results

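Promoter peaks shared by KLF1 and its Nan mutant are the regions described here. They were taken from the authors' annotated list of KLF1 peaks as those placed in a promoter whose interval overlaps an interval of the Nan-KLF1 list by at least 1 bp. Of 1564 KLF1 promoter peaks, 471 met the rule, out of 5326 KLF1 peaks in all, and 481 of the 2758 Nan-KLF1 peaks overlap them. The peaks were thus chosen by the position of peaks called in both lists, so the folds, widths, positions and motifs of these peaks are given as descriptions with no test.

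The peaks come from chromatin immunoprecipitation sequencing (ChIP-seq) with an antibody to KLF1, set against input DNA. Cells were K1, an immortalized mouse erythroblast line without KLF1, carrying either KLF1 fused to the tamoxifen-responsive part of the estrogen receptor (K1-ER) or the same fusion of Nan-KLF1 (K1-NanER). Both lines received 200 nM 4-hydroxytamoxifen for 3 h, and each factor has 1 ChIP and 1 input library, made from 3 pooled replicates. The genes nearest these peaks were then followed in RNA labelled for 1 h with 4-thiouridine (4sU, 500 uM), which marks newly made RNA. This RNA came from 2 samples each of K1, K1-ER (clones A and C) and K1-NanER (clones B and X). All of these samples had 200 nM tamoxifen, for a time that the sample records used here do not give. The same genes were also followed in polyadenylated, globin-depleted RNA of whole fetal liver at embryonic day 14.5. These were 3 heterozygous Nan/+ and 3 wild-type livers. The authors' tables give 1 value per group, so no spread between samples and no depth is known for any value below. Of 10 genes that define erythroid cells, the authors' deposited 4sU table lists 5, among them Epor, the erythropoietin receptor, at 129 FPKM (fragments per kilobase of transcript, scaled to library size) in K1, and Slc4a1, the band 3 anion exchanger, at 2.00 FPKM.

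KLF1 is the founding Krüppel-like factor, a zinc finger activator of red cell genes that binds a CACCC-type element in promoters and enhancers. Its zinc fingers read a short C-rich box, and related Krüppel-like and Sp factors read similar boxes in many GC-rich promoters. Nan is a semidominant substitution in the second zinc finger, at a residue that contacts DNA, and Nan/+ mice are anemic.

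The authors gave most peaks a central motif of 8 bases, which varies at bases 3, 4 and 5. The most frequent one at shared promoter peaks, in both lists, was ccCCGccc, written here with those 3 variable bases in capitals. A motif with C at base 4 and A or G at base 5 is called canonical here, and an A or T at base 4 is called a departure at base 4. The RefSeq promoter sequences of 8 of the genes are printed to show how these motifs lie before the start of genes whose new RNA was called different from K1. They are 100-base stretches upstream of the start on build GRCm38.p6, 5′ to 3′ on the gene's strand, with capitals marking the match to the motif of the gene's own KLF1 peak that lies nearest the start, on either strand. A match before the start was required for printing. Genes called in both lines and in liver were taken first, then those with the largest called changes. Epb4.9, Insl6, Slc30a10, Rrad and Klf10 stood in this order too and were passed over, since no match was found for them. The windows were matched by gene symbol and the peaks are on mm9, so whether the match lies under the peak was not tested.
Fam212a, an inhibitor of PAK4 kinase (chr9:107985917-107986016, minus strand, match from 23 bases before the start): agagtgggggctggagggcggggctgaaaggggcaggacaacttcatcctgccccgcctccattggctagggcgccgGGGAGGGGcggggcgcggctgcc
Grap2, an adaptor protein of blood cells (chr15:80623379-80623478, plus strand, 58 bases before): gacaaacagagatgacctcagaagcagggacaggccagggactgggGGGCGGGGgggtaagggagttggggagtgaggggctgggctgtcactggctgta
Tmsb10, an actin-sequestering thymosin (chr6:72958484-72958583, minus strand, 15 bases before): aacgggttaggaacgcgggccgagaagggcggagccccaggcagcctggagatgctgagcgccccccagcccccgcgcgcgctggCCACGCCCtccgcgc
Mxd3, a MAX-binding repressor of the MYC network (chr13:55329797-55329896, minus strand, 119 bases before): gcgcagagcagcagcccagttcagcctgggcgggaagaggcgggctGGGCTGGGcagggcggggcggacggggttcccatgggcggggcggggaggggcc
Mid1ip1, a regulator of fatty acid synthesis (chrX:10717265-10717364, plus strand, 21 bases before): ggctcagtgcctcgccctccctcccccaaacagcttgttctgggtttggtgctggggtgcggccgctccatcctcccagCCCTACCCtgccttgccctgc
AI464131, a glycosidase gene (chr4:41503155-41503254, minus strand, 133 bases before): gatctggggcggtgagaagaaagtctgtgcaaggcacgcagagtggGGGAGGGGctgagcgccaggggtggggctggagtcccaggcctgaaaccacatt
Slc6a3, the dopamine transporter (chr13:73536647-73536746, plus strand, 9 bases before): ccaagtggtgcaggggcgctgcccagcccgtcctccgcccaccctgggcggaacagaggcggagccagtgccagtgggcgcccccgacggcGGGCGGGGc
1700026L06Rik (chr2:28699652-28699751, minus strand, 40 bases before): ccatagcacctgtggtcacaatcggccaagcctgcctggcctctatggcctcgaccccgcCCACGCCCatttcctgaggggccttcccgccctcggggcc
In Grap2, Mxd3, Fam212a, AI464131 and Slc6a3 the match is on the opposite strand and reads as a G-rich box. The Mid1ip1 and Mxd3 matches depart from the canonical motif at base 4, and the Grap2, Slc6a3, Tmsb10 and 1700026L06Rik matches are canonical. The Fam212a and AI464131 matches have C at base 4 and T at base 5. Other motifs in the stretches are not marked, such as the canonical ccCCGccc, read as gggcgggg, in that of Mxd3.

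Promoters were the location where KLF1 peaks most often overlapped a Nan-KLF1 peak. The share was 30.1% (471 of 1564; 95% Wilson interval 27.9 to 32.4), against 22.8% of KLF1 peaks at any location. Introns had 20.7% of 1951 peaks shared, distal sites 18.5% of 1279, and peaks downstream of genes 26.8% of 97, with an interval of 19.0 to 36.4 that overlaps that of promoters. These intervals cover counting error only, and peaks of 1 experiment are not independent replicates.

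The intervals of the shared peaks mostly lay inside one another. The overlap had a median of 496 bp, ranged from 178 to 1916 bp, and covered a median of 100% of the shorter interval. The summits, the points of highest signal, lay a median of 41 bp apart, and 276 of 471 pairs (58.6%) lay within 50 bp, which is the limit of the authors' own intersection. The Nan-KLF1 list also placed its peak in a promoter for 449 of the 471 and named the same gene for 453. At the edge of the rule, the 5 smallest overlaps were at Plec (178 bp), Gnl3 (203 bp), C2cd2l (233 bp), Zfp868 (243 bp) and Grina (252 bp). The 5 nearest KLF1 promoter peaks left out missed a Nan-KLF1 peak by 20 bp at Ttc7, 35 bp at Sp1, 197 bp at Ezr, 210 bp at Tkt and 246 bp at Fads3. The Nan-KLF1 peak missed at Sp1 overlapped another KLF1 peak of the same gene, which is counted among the 471.

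Shared peaks, in promoters and elsewhere, had higher median fold enrichment than the KLF1 list as a whole. A peak's fold enrichment, signal in ChIP divided by that in input as the authors computed it, is compared here only within its own list. The 471 had a median KLF1 fold of 133 (31.7 to 1151), while the 1093 promoter peaks of KLF1 alone and all KLF1 peaks both had a median of 75.6. The 744 shared peaks outside promoters had a median of 110. In the Nan-KLF1 list the 471 shared promoter peaks had a median fold of 130 (36.6 to 926), and the list as a whole had 107. The shared promoter peaks had a median KLF1 width of 919 bp against 805 bp for shared peaks outside promoters and 727 bp for promoter peaks of KLF1 alone. The part of width in which peaks were shared was not tested.

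A strong KLF1 peak was only loosely a strong Nan-KLF1 peak among the 471. Spearman's rho between both folds was 0.25 across the peaks, which share their libraries and are not independent. Of the 471, 230 lay above the median of both lists, 122 above that of the KLF1 list only, 62 above that of the Nan-KLF1 list only and 57 above neither. The top 10% of the KLF1 list held 143 of them, the top 10% of the Nan-KLF1 list 79, and 39 were in both.

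**Figure D1:**
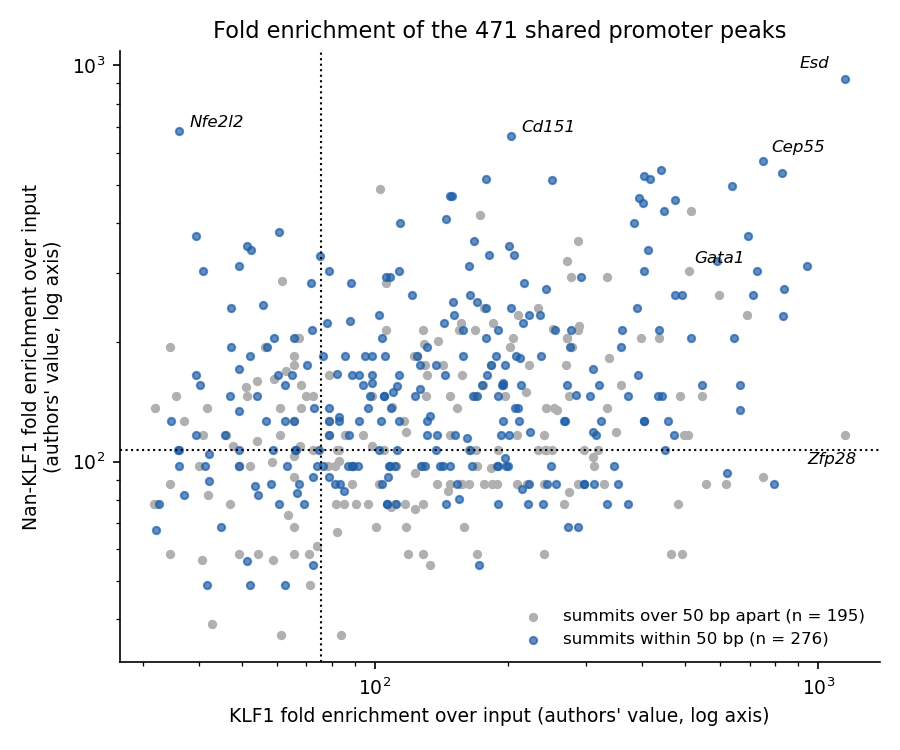
Fold enrichment over input of the 471 shared promoter peaks, with the KLF1 value on the x axis and the Nan-KLF1 value on the y axis, both on log scales. Points are peaks, blue where the summits lie within 50 bp (276) and grey where they lie farther apart (195), and dotted lines are the medians of each whole list, 75.6 and 107. Esd and Cep55 are high on both axes, Zfp28 only on the x axis, and Nfe2l2 only on the y axis.

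Esd, which encodes the detoxifying enzyme esterase D, led both lists among the 471, with a KLF1 fold of 1151 and a Nan-KLF1 fold of 926 (mm9 chr14:75131628-75132574). Its summits lay 45 bp apart, with the canonical ccCCGccc in the KLF1 list and ccCAGccc, a departure at base 4, in the Nan-KLF1 list. Cep55, a protein of the midbody in dividing cells, had folds of 752 and 575 (chr19:38128593-38129785). Cep55 carried ccCCGccc in both lists, and its summits lay 17 bp apart.

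The following peaks were among the 10 highest of the 471 in 1 list only. Zfp28, a zinc finger gene, tied with Esd at a KLF1 fold of 1151 but had a Nan-KLF1 fold of 117 (chr7:6335644-6336343). Tmem237, a protein of the ciliary transition zone, had 795 and 87.7 with no motif in either list. Fah, the last enzyme of tyrosine breakdown, had 752 and 91.5, with summits 606 bp apart. In the other direction Nfe2l2, the regulator of the antioxidant response, had a KLF1 fold of 36.2 and a Nan-KLF1 fold of 682 (chr2:75541483-75543351). Its motif was ccATGccc in the KLF1 list and ccCCGccc in the Nan-KLF1 list, so the departure at base 4 stood in the list where the peak was weak. Cd151, a tetraspanin of the cell surface, had 203 and 663 with ccCCGccc in both. Arrb1, a beta-arrestin, and Ywhab, a 14-3-3 protein, had KLF1 folds of 834 and 837 and Nan-KLF1 folds of 233 and 273. Hexa, a subunit of lysosomal hexosaminidase, had 418 and 517, with ccAAAccc, a departure at base 4, in both lists. Gata1, the master regulator of erythroid genes, had 726 and 302 (chrX:7544756-7546176), with ccACTccc in both lists and summits 8 bp apart. Neither expression table lists Gata1, Esd, Cep55 or Nfe2l2.

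A central motif was given to 396 of the 471 in the KLF1 list (84.1%, Wilson interval 80.5 to 87.1) and to 375 in the Nan-KLF1 list (79.6%, 75.7 to 83.0). In the KLF1 list, promoter peaks of KLF1 alone had one in 74.9% and shared peaks outside promoters in 77.2%. In the Nan-KLF1 list, promoter peaks of Nan-KLF1 alone had one in 77.2% (70.8 to 82.6), an interval that overlaps that of the shared promoter peaks, and the whole list in 68.3%. The motif ccCCGccc alone stood at 170 KLF1 rows (36.1%) and 146 Nan-KLF1 rows (31.0%) of the shared promoter peaks, against 25.9% of promoter peaks of KLF1 alone, 16.4% of all KLF1 peaks and 13.7% of all Nan-KLF1 peaks. The next most frequent was ccACGccc, with 59 and 55 peaks.

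The shared promoter peaks stood between both lists in how often base 4 departed. Among KLF1 rows with a motif, 24.2% had A or T at base 4 (96 of 396, 20.3 to 28.7), above the 15.4% of promoter peaks of KLF1 alone (13.1 to 18.0) and below the 36.6% of shared peaks outside promoters. Among Nan-KLF1 rows with a motif the share was 29.9% (112 of 375, 25.5 to 34.7), below the 41.6% of promoter peaks of Nan-KLF1 alone and the 49.7% of its whole list. Canonical motifs made up 46.5% of the Nan-KLF1 rows of shared promoter peaks and 23.2% of the whole Nan-KLF1 list.

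**Figure D2:**
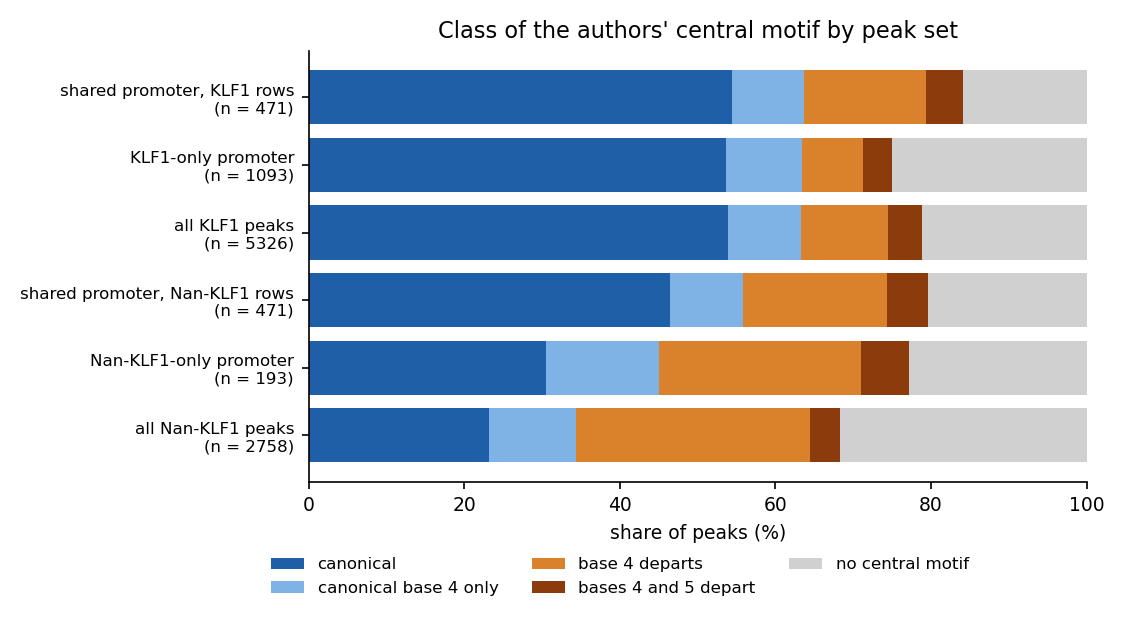
Share of peaks (x axis, %) in each class of the authors' central motif, for 6 sets of peaks with their number in brackets. Shared promoter peaks have 54.4% canonical motifs in the KLF1 list and 46.5% in the Nan-KLF1 list, while all Nan-KLF1 peaks have 23.2%.

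Both lists often gave a shared promoter peak the same motif. A motif stood in both rows of 357 peaks, in neither of 57, in the KLF1 row alone of 39 and in the Nan-KLF1 row alone of 18. The motif was identical in 221 of the 357 (61.9%). It was identical in 178 of 232 pairs with summits within 50 bp (76.7%) and in 43 of 125 pairs farther apart (34.4%), and the share fell over the bins of distance from 88.7% to 17.9%. Base 4 was C in both rows of 226 peaks and A or T in both of 65. It changed from C in the KLF1 row to A or T in the Nan-KLF1 row in 39 peaks and the other way in 27, and among pairs with summits within 50 bp in 14 and 10.

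**Figure D3:**
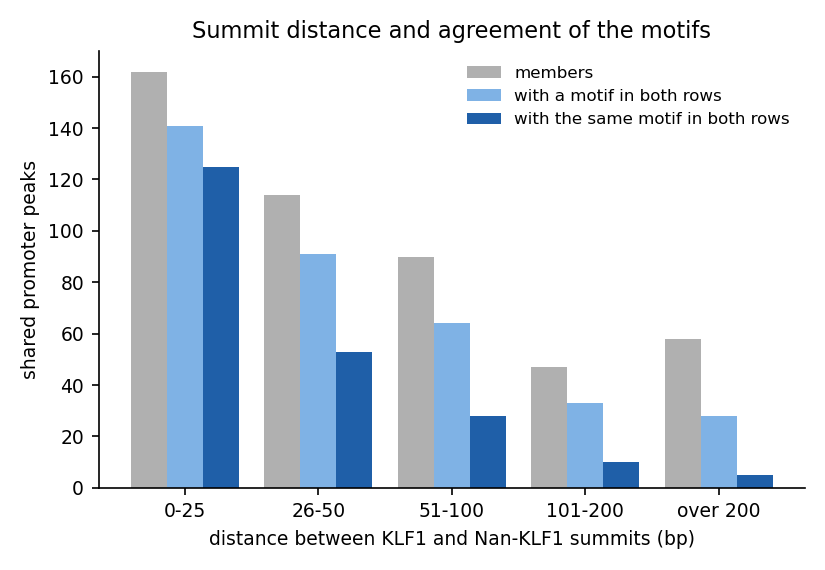
Number of shared promoter peaks (y axis) by the distance in bp between their KLF1 and Nan-KLF1 summits (x axis), as all members, those with a motif in both lists and those with the same motif in both. In the closest bin 125 of 141 pairs with motifs have the same one, and in the farthest bin 5 of 28.

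RefSeq promoter windows of the genes hold these motifs more often than windows in general. Windows run from 250 bases before to 50 after a start, and 372 of the 462 gene names matched 494 windows. At least 1 canonical motif (CCACACCC, CCACGCCC, CCCCACCC or CCCCGCCC, either strand) lay in 69.6% of them, in 66.8% of windows of genes with a promoter peak of KLF1 alone and in 29.7% of all 32851 windows. A motif that departs at base 4 lay in 46.0%, 35.0% and 27.2% of these windows, respectively. The median GC content was 64.0%, 64.7% and 52.7% in the same order, and its part in these shares was not tested. Where the gene had a window, the motif of the KLF1 row was found in it for 261 of 320 peaks and that of the Nan-KLF1 row for 234 of 304.

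The 471 peaks carry 462 gene names, and 6 of these have more than 1 peak. Rn4.5s, a small repeated RNA gene, has 5 neighbouring peaks on chromosome 6 with no motif in either list. Hba-a1, an alpha globin gene, has a peak at each of the near-identical copies (chr11:32183238-32183961 and chr11:32195939-32196688), with KLF1 folds of 158 and 210. Cdkn2d, an inhibitor of cyclin-dependent kinases, has peaks at chr9:21095250-21096285 and chr9:123836228-123837263, both 1036 bp wide. Reads of such copies may not be told apart, so their values are uncertain.

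New RNA was listed for 143 of the 462 genes (31.0%), and most of them rose when KLF1-ER was active. The authors' deposited 4sU table holds only genes called in at least 1 line, and lists 22.5% of genes with a promoter peak of KLF1 alone and 6.95% of RefSeq protein-coding genes. A gene is called here at a q of at most 0.05 in the authors' comparison with K1. In K1-ER 101 of the 143 rose (70.6%, where the whole table has 37.9% rising) and 2 fell (where the whole table has 11.5% falling). The rising share was 69.6% of the listed genes with a shared peak outside promoters and 60.4% of those with a promoter peak of KLF1 alone. The median log2 fold change was 1.62 in the authors' deposited table, that of all its genes 0.72 and that of genes with a promoter peak of KLF1 alone 1.27; with a shared peak outside promoters it was 1.47. Fewer cells of a type and less RNA per cell cannot be told apart in such bulk samples.

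In K1-NanER 80 of the 143 genes rose (55.9%, where the whole table has 47.4%) and 14 fell (9.79%, against 28.3%). The rising share was 52.9% with a shared peak outside promoters and 53.3% with a promoter peak of KLF1 alone. It was higher, 68.0%, for the 25 listed genes with a promoter peak of Nan-KLF1 alone. The 143 genes had a median log2 fold change of 1.38, and all genes of the authors' deposited table had 1.04. Those 25 genes had 1.54. Both comparisons use the same K1 samples, so their values are set side by side and the lines were not tested against each other. Called in both lines were 54 genes (25.1% of the whole table was): 53 rose in both and 1 fell in both. Called in K1-ER alone were 49 (24.3% of the whole table), of which 48 rose. Called in K1-NanER alone were 40 (50.6% of the whole table), of which 27 rose and 13 fell. The 53 genes that rose in both lines had a median log2 fold change of 2.65 over K1 with KLF1-ER, and of 2.15 with Nan-KLF1-ER.

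The counts were also read by motif and by summit distance, as descriptions. With C at base 4 in both lists, 64 genes were listed, of which 39 rose in K1-ER (60.9%) and 38 in K1-NanER (59.4%). With a motif in both lists and A or T at base 4 in at least 1 of them, 43 were listed. Of these, 33 rose in K1-ER (76.7%) and 19 in K1-NanER (44.2%). Peaks with a motif in 1 list only were left out of this grouping. With no motif in either list, 13 were listed, of which 9 (69.2%) and 8 (61.5%) rose. Of 85 listed genes with summits within 50 bp 55 rose in K1-ER (64.7%), 51 rose in K1-NanER (60.0%) and 12 fell in K1-NanER (14.1%). Of 58 with summits farther apart the corresponding counts were 46, 29 and 2. Over the whole 4sU table, 37.9% of genes rose in K1-ER, while 47.4% rose and 28.3% fell in K1-NanER. Whether these groups of genes differ was not tested.

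**Figure D4:**
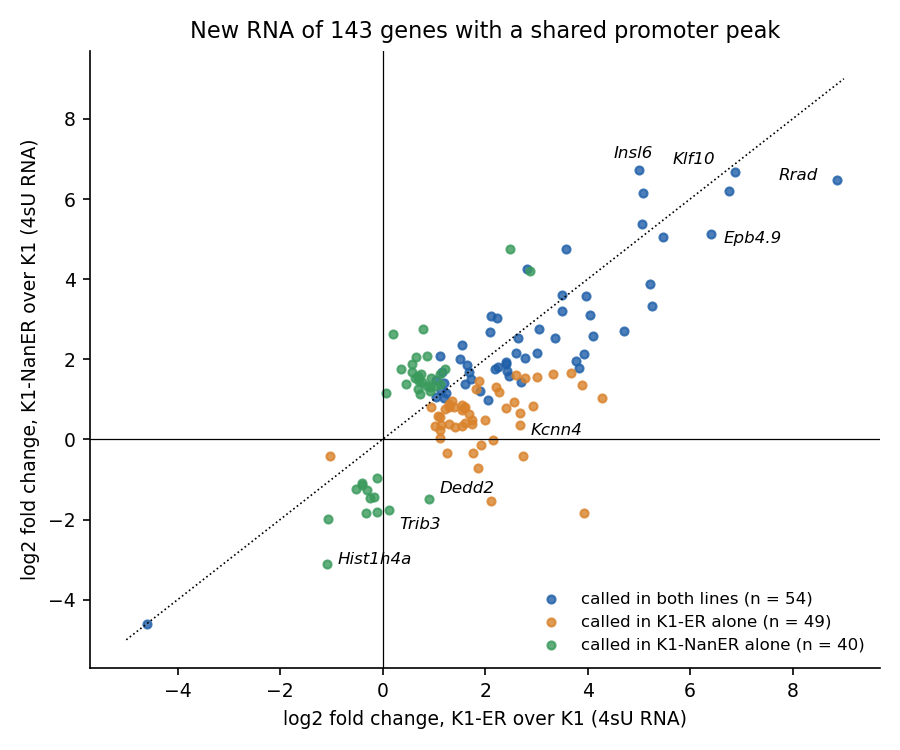
Log2 fold change over K1 in the authors' deposited 4sU table for the 143 genes with a shared promoter peak, K1-ER on the x axis and K1-NanER on the y axis, coloured by the line in which they were called, with a dotted line of equal values. Most points lie right of and above 0, and the genes that fell in K1-NanER alone lie between -1.08 (Hist1h4a) and 0.90 (Dedd2) on the x axis.

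Among genes above 0.1 FPKM in K1, the largest rises in K1-ER were at Rrad, Klf10, Mid1ip1 and Mxd3. Rrad, a small GTPase that inhibits calcium channels, stood at 1.29 FPKM in K1, 603 with KLF1-ER and 116 with Nan-KLF1-ER in the authors' deposited table (log2 fold changes 8.87 and 6.49, q = 0.00931 in both). Klf10, a Krüppel-like repressor induced by TGF-beta, stood at 3.39, 399 and 347 FPKM in the authors' deposited table (6.88 and 6.67, q = 0.00213 in both). Mid1ip1 stood at 35.2, 1351 and 356 FPKM in the authors' deposited table, and Mxd3 at 4.73, 209 and 158. All 4 genes were higher in both lines than in K1, with the highest level in K1-ER. They were picked for their rise in K1-ER, which favours that order.

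A further 9 genes stood at 0.1 FPKM in K1, the lowest K1 level in the authors' deposited table, so no fold is given for them. Among them Tmsb10 stood at 10.8 FPKM in K1-ER and 7.37 in K1-NanER, Slc6a3 at 3.39 and 7.16, and Anxa5, a phospholipid-binding annexin, at 3.35 and 4.15 in the authors' deposited table. AI464131 stood at 3.73 and 1.47 FPKM in the authors' deposited table. Each of these genes was called in both lines, and the order of the lines differed from gene to gene.

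Genes that fell in K1-NanER included 4 histone genes. Hist1h4a stood at 222 FPKM in K1, 105 with KLF1-ER and 25.9 with Nan-KLF1-ER in the authors' deposited table, with q values of 0.184 (K1-ER) and 0.0196 (K1-NanER). Hist1h4k, Hist2h3c1 and Hist2h3c2 also fell in K1-NanER. The authors' deposited table gives them log2 fold changes of -1.98, -1.47 and -1.84 there, and a q of 0.133, 0.799 and 0.708 in K1-ER. All 4 carried a motif that departs at base 4 in both lists, ccAAGccc at the H4 genes and ccCAGccc at the H3 genes. These histone genes have near-identical copies, so their values are uncertain.

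Other genes that fell in K1-NanER alone included Mepce, Trib3 and Dedd2. Mepce, the capping enzyme of 7SK RNA, stood at 117, 109 and 33.7 FPKM in K1 and the KLF1-ER and Nan-KLF1-ER lines in the authors' deposited table, and its summits coincided. Trib3, a pseudokinase of the stress response, stood at 55.4, 60.1 and 16.4 FPKM in the authors' deposited table. Dedd2, a death effector domain protein, stood at 57.2, 107 and 20.3 FPKM in the authors' deposited table (log2 fold change 0.90 with q = 0.0747 in K1-ER and -1.49 with q = 0.00213 in K1-NanER). Genes that fell in K1-ER were 1700026L06Rik, at 2.43 FPKM in K1 and 0.1 in both lines in the authors' deposited table, and Secisbp2, a factor for selenoprotein synthesis, at 32.9, 16.0 and 24.8 FPKM.

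Gene lists were read beside the share of all KLF1 promoter peaks that were shared, 30.1%. Of 38 genes of erythroid transcription and signalling, 6 had a shared promoter peak (Gata1, Ldb1, Pim1, Tcf3, Zbtb7a and Zfpm1) and 4 a promoter peak of KLF1 alone. The 3 that the authors' deposited 4sU table lists rose in K1-ER, and none of them was called in K1-NanER, where their q values were 0.446, 0.609 and 0.0657. Ldb1, the bridging factor of the GATA1 complex, stood at 44.9 FPKM in K1, 150 with KLF1-ER and 63.0 with Nan-KLF1-ER in the authors' deposited table. Pim1, a survival kinase, stood at 166, 555 and 215 FPKM in the authors' deposited table. Zbtb7a, a repressor of fetal globin genes, stood at 107, 515 and 242 FPKM in the authors' deposited table. Their KLF1 and Nan-KLF1 folds were 484 and 78.0 at Ldb1, 619 and 87.7 at Pim1, and 210 and 136 at Zbtb7a.

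Of 41 genes of the red cell membrane, 6 had a shared promoter peak (Add1, Add3, Cd47, Epb4.9, Icam4 and Kcnn4) and 6 a promoter peak of KLF1 alone. Kcnn4, the calcium-activated potassium channel of red cells, stood at 11.8 FPKM in K1, 75.6 with KLF1-ER and 15.2 with Nan-KLF1-ER in the authors' deposited table, and rose in K1-ER (q = 0.00213) while its q in K1-NanER was 0.701. Its shared promoter peak had folds of 243 and 273 with summits 6 bp apart. The KLF1 list names 5 peaks for Kcnn4, and the Nan-KLF1 list names 2. Epb4.9 rose in both lines and fell in Nan/+ liver. Of the 11 globin and globin chaperone genes Hba-a1 alone had a shared promoter peak, and of the 30 heme and iron genes none had one, while 5 had a promoter peak of KLF1 alone.

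Of 39 cell cycle genes 5 had a shared promoter peak (Cdc25b, Cdkn2d, E2f1, Mxd3 and Rb1) and 9 a promoter peak of KLF1 alone. Of the 5 with a shared peak, 3 rose in K1-ER and 2 in K1-NanER. Cdkn2d stood at 6.37, 43.8 and 18.3 FPKM in K1 and the KLF1-ER and Nan-KLF1-ER lines in the authors' deposited table, and was called in K1-ER. Rb1, the retinoblastoma protein, stood at 4.21, 6.56 and 12.1 FPKM in the authors' deposited table and was called in K1-NanER alone. Sp1, a ubiquitous activator of GC-box promoters, was likewise called in K1-NanER alone, at 17.2, 28.5 and 37.5 FPKM in the authors' deposited table. Both members of the immediate early list, Junb and Zfp36, rose in both lines. The authors' deposited table gives Junb, a subunit of AP-1, at 143, 865 and 631 FPKM. The authors' deposited table has Zfp36, which promotes decay of AU-rich messenger RNA, at 8.03, 56.4 and 154 FPKM. Of the 30 genes of the stress list 4 had a shared promoter peak and 2 a promoter peak of KLF1 alone. Among the 4, Ddit3, a transcription factor of the unfolded protein response, rose in K1-ER and Trib3 fell in K1-NanER. Of the 24 Krüppel-like and Sp factors, 3 had a shared promoter peak (Klf10, Sp1 and Sp4) and 2 a promoter peak of KLF1 alone. Sp4 fell in Nan/+ liver. Of the 46 chromatin regulators Brd3 had a shared promoter peak and 5 had one of KLF1 alone. Of the 38 ubiquitin and autophagy genes Ube2l6, which rose in K1-ER, had a shared one and 6 had one of KLF1 alone. Of the 29 genes of glycolysis and metabolism Eno1 and Gapdh had a shared one and 4 had one of KLF1 alone. The lists of splicing, of mitochondrial and ribosomal genes, and of markers of other cell types had no shared promoter peak. A promoter peak of KLF1 alone stood at 5, 3 and 0 of their genes, respectively.

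The genes were also counted by the number of KLF1 peaks that name them. Of the 54 listed genes that the KLF1 list names for 2 or more peaks 47 rose in K1-ER (87.0%). Of the 89 named for 1 peak 54 did (60.7%), where the whole table has 37.9%. In K1-NanER 27 of the 54 and 53 of the 89 rose. Across the 143 genes Spearman's rho of the KLF1 fold with the K1-ER log2 fold change was 0.17, and that of the Nan-KLF1 fold with the K1-NanER log2 fold change was 0.10. These are descriptions over genes that share their libraries. The distance between a peak and its gene's annotated locus was known for 161 peaks. Of these, 147 had the summit within 1 kb of the nearest edge and 10 more than 5 kb from it, among them Epb4.9, Ldb1 and Slc30a10.

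In fetal liver, 27 genes with a shared promoter peak were listed, of which 19 were higher and 8 lower in Nan/+ than in wild type. All 793 genes of the authors' deposited liver table were called (100%), with 75.4% higher and 24.6% lower, and 70.4% of the 27 were higher. The liver table lists 3.46% of RefSeq protein-coding genes and 5.84% of genes with a shared promoter peak. Rises included Insl6, an insulin-like peptide, at 0.41 FPKM in wild type and 8.01 in Nan/+ in the authors' deposited table. Shisa5, a protein of the endoplasmic reticulum, stood at 12.8 and 81.9 FPKM, and Acy1, an aminoacylase, at 18.9 and 72.9 FPKM in the authors' deposited table. Falls included Rgcc, a regulator of the cell cycle, at 131 and 21.1 FPKM in the authors' deposited table, and Cdc25b, a phosphatase that activates cyclin-dependent kinases, at 121 and 56.0.

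Of the 11 genes with a shared promoter peak that both tables list, 6 were called in both lines and in liver: Epb4.9, Fam212a, Grap2, Insl6, Slc30a10 and Tmsb10. Of all 102 genes that both tables list, 30 were (29.4%). Epb4.9, the actin-bundling dematin of the red cell membrane, stood at 0.1 FPKM in K1, 8.54 with KLF1-ER and 3.47 with Nan-KLF1-ER, and at 84.8 FPKM in wild-type and 7.98 in Nan/+ liver in the authors' deposited tables. Slc30a10, a manganese transporter, stood at 23.1, 95.7 and 45.6 FPKM in the lines and at 22.8 and 9.37 in wild-type and Nan/+ liver in the authors' deposited tables. These 2 genes rose in both lines and fell in Nan/+ liver, while the other 4 rose in all 3 comparisons. Grap2 stood at 23.2, 52.0 and 74.5 FPKM in K1, K1-ER and K1-NanER, and at 19.1 and 57.5 FPKM in wild-type and Nan/+ liver in the authors' deposited tables. Fam212a stood at 29.7, 158 and 110 FPKM in the lines and at 21.7 and 50.9 in wild-type and Nan/+ liver in the authors' deposited tables.

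**Figure D5:**
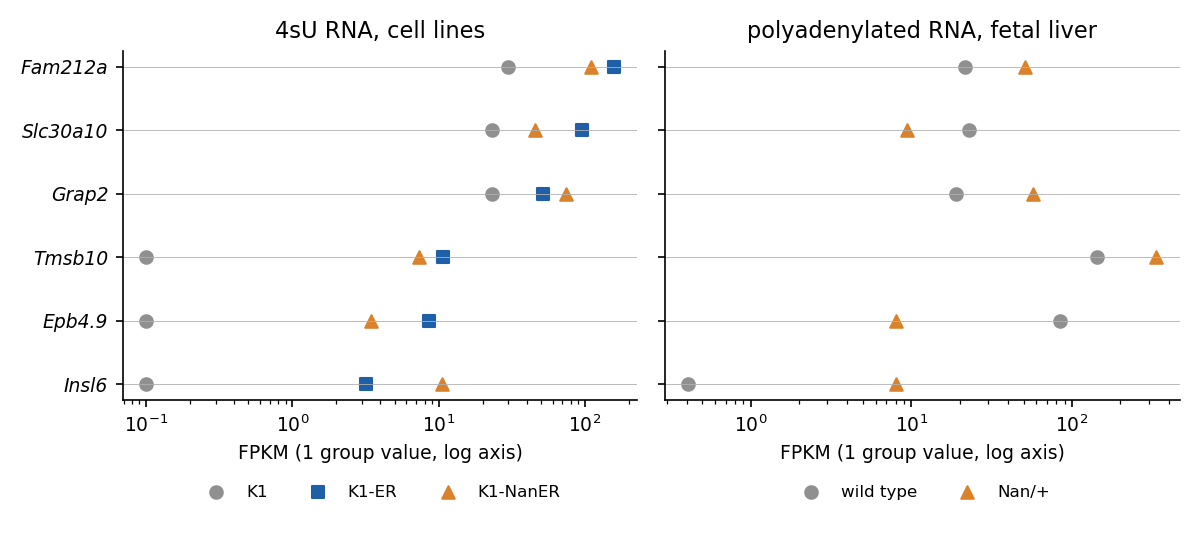
Levels in FPKM (x axes, log scale) of the 6 genes called in all 3 comparisons, 1 value per group from the authors' deposited tables, for the cell lines on the left and fetal liver on the right. Epb4.9 and Slc30a10 are lower in Nan/+ than in wild-type liver, and the other 4 are higher.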

How the data were processed

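The deposited peak lists hold the authors' fold enrichment, a ratio of ChIP over input, and a rank score. They are on mm9, and the submitters' processing notes name MACS 1.4.2 and TopHat2 2.0.10. Per the file headers, the nearest gene lies within 300 kb. The deposited expression tables hold the authors' FPKM per group, log2 fold change, p-value and q value. For these values the program, and for the central motif the step that assigned it, is not given in the sources used here. No counts were used, so depth is unknown and no model was fitted.

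Intervals were joined by an overlap of at least 1 bp with Python 3.11.15 and pandas, tested on simulated intervals. Where 2 Nan-KLF1 peaks overlapped 1 peak (12 of 471), that with the nearest summit was read. Peaks were tied to expression by the authors' gene name; 1 name is a number left by a spreadsheet. Intervals of shares are 95% Wilson intervals. The labels leave unsaid if K1 samples or livers of a group had separate cultures or litters.

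The 471 peaks and the 14 gene lists were chosen with earlier results of these data known. Named genes are the 10 highest folds per list, the 8 largest called rises and falls per comparison reaching 1 FPKM in the higher group, genes called in all 3 comparisons, called genes of the lists, and the 5 peaks on each side of the overlap rule; 1 gene that the rule names is not reported here. Alternatives were a stricter overlap, centre distance, fold, q and FPKM minimum, both lists calling a promoter, and a pseudocount of 1 FPKM. Added after seeing the data were summits within 50 bp, leaving out copied genes, and the same gene in both lists.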

Additional observations from a re-analysis of the deposited data

How the results depend on the processing

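Of 60 alternative values, 51 stayed within their limits, 9 moved and 0 reversed direction. Only a median could reverse, since counts and shares have no direction. The limits were 1.5 times for a count and a 95% interval for a share or a median. Medians over all genes of a table are among the 60 and were checked for direction only. With centres within 100 bp, 229 peaks were shared, 14.6% of KLF1 promoter peaks. With summits within 50 bp, chosen after seeing the data, 276 were shared (17.6%), 85.9% of Nan-KLF1 rows had a motif, 57 genes were called in K1-ER and 16 in liver. With a fold of at least 50 in both lists 33.0% of KLF1 promoter peaks were shared. At a q of at most 0.01, 17 liver genes were called. No paired analysis was possible because the tables give 1 value per group, and for the same reason no replicate could be left out.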
